A study of Mus musculus with 2 samples.

Results

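PD-1 and its ligands are 3 genes: *Pdcd1* (ENSMUSG00000026285), the gene of the receptor PD-1, *Cd274* (ENSMUSG00000016496), the gene of PD-L1, and *Pdcd1lg2* (ENSMUSG00000016498), the gene of PD-L2. They were chosen by symbol from the 32589 genes of the deposited single-cell tables, and their unique molecular identifiers (UMIs, 1 per captured transcript) were summed in each library over cell classes gated by marker genes. The 2 libraries came from tumor-bearing livers of mice labelled shYT, 1 library per treatment. One group received PBS and the other an antibody against mouse PD-1, clone RMP1-14.

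Cholangiocarcinoma had been induced in both groups by hydrodynamic tail vein injection of transposons for an activated Notch receptor (NICD) and myristoylated AKT. All animals carried inducible shRNAs for *Yap1* and for *Wwtr1*, which encodes TAZ, under a doxycycline-dependent transactivator (rtTA3) driven by the broadly active CAG promoter. Doxycycline was given from day 25 in both groups, so that YAP/TAZ depletion was shared and could not be compared. The antibody was given on days 26, 29 and 32, and livers were analyzed on day 33. The labels gave neither the shRNA line, the sex nor the number of animals per library, and the study's methods state that mice of both sexes were used. The legend of the study's T cell maps gives a number per group, which no label ties to these libraries. With 1 library per group no difference could be tested between treatments: the 95% intervals below cover counting error only, and a treatment effect cannot be told apart from a difference between the 2 preparations.

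PD-1 is an inhibitory receptor that T cells display after antigen stimulation and keep under chronic stimulation. PD-L1 can be induced by interferon-γ on many cell types, immune and nonimmune, whereas PD-L2 is best known from dendritic cells (DCs) and macrophages. Binding of either ligand recruits phosphatases to the tail of PD-1 and dampens signals from the T cell receptor and CD28, and an antibody such as RMP1-14 blocks this binding.

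*Pdcd1* lies on chromosome 1 (GRCm38, 94038305 to 94052553, reverse strand). The ligand genes are neighbors on the forward strand of chromosome 19, *Cd274* from 29367455 to 29388095 and *Pdcd1lg2* from 29410919 to 29471161, with 22823 bases between them. The 2 ligand genes are adjacent, but the class with the most UMIs differed: macrophages or Kupffer cells for *Cd274* and T cells for *Pdcd1lg2*. The 250 bases before the start of each ligand gene are shown here (RefSeq, GRCm38.p6, forward strand, 5′ to 3′), chr19:29367188-29367437 for *Cd274* and chr19:29410669-29410918 for *Pdcd1lg2*. Capitals mark letters read on either strand as GAAANNGAA.
Cd274: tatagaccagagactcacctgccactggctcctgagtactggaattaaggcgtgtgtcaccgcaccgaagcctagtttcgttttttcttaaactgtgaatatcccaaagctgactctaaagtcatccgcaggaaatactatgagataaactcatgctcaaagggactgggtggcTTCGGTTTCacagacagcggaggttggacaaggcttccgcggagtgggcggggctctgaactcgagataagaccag
Pdcd1lg2: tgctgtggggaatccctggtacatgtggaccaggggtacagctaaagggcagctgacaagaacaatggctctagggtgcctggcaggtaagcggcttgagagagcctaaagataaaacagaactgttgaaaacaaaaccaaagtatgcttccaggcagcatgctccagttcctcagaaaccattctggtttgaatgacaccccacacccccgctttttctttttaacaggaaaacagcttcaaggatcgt
The letters GAAANNGAA with one further A, a pattern of interferon regulatory factors read on either strand, had no match in these windows or in that of *Pdcd1*. They occurred in 2.98% of the 32851 promoter windows of this length. The shorter GAAANNGAA, contained in that pattern and searched only after it had given no match, occurred in the *Cd274* window, from 76 to 68 bases before the RefSeq start (the base after the window, which lies before the start of the gene model given above), and in 7.13% of all windows. These are descriptions of letters and not of bound sites.

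After filtering for 500 to 5000 genes and a mitochondrial share of at most 10%, 15531 PBS and 16360 anti–PD-1 cells remained, with a median of 3159 and 2990 UMIs. Of these, 84.4% and 82.7% were assigned to a class, each class being only "like" the cell type it is named for, and in every class all markers of its own list were detected in both libraries. Levels are given in CPM, the UMIs of a gene relative to all UMIs of its class, and a positive log2 ratio means that the anti–PD-1 level was higher, 5 CPM having been added to both. The libraries differed in makeup: 6686 kept PBS cells had a UMI of *Xist* and none of 4 Y-linked genes, and 1481 had the reverse, whereas 4 and 7861 anti–PD-1 cells did. The PBS library thus held cells of both sexes and the anti–PD-1 library almost only male cells, so sex and treatment cannot be told apart in the ratios, and values within each kind of cell are given beside the main results. The libraries shared 219 cell barcodes.

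The receptor was found in T cells. They held 84.2% of all *Pdcd1* UMIs in each library (1317 of 1565 in PBS and 2360 of 2802 in anti–PD-1), although they made up 13.1% and 19.4% of the RNA. In neutrophils, given here for comparison, *Pdcd1* stood at 3.76 CPM in PBS and 9.01 CPM in anti–PD-1, with free RNA and doublets included. Mature DCs, described below, had 25.0 CPM (11.5 to 47.6) from 9 UMIs in PBS, 6 of them in 1 cell, and 11.6 CPM from 4 UMIs in anti–PD-1, and ungated cells had 13.1 and 21.4 CPM. Over all cells, *Pdcd1* differed in opposite directions between CD8 and CD4 T cells.

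In CD8 T cells *Pdcd1* had 309 UMIs in 869 PBS cells against 1287 UMIs in 1273 anti–PD-1 cells, which gave levels of 101 CPM (95% interval 89.8 to 113) in PBS and 194 CPM (183 to 205) in anti–PD-1. The anti–PD-1 library was higher and the intervals did not overlap (log2 ratio 0.91, interval 0.74 to 1.09). Neutrophil markers in these cells summed to 164 and 978 CPM, and free RNA was estimated to give 2.77 and 3.41 CPM of *Pdcd1*. In CD8 cells with more effector than naive markers (*Gzmb*, *Ccl5* and 5 others), the level was 180 CPM in PBS and 295 CPM in anti–PD-1, a log2 ratio of 0.69 (0.52 to 0.87). Naive-like CD8 cells (*Lef1*, *Dapl1* and others) held 1 *Pdcd1* UMI in 273 PBS cells against 27 in 443 anti–PD-1 cells, so that most CD8 *Pdcd1* UMIs lay in the effector set.

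The share of CD8 T cells with a *Pdcd1* UMI, after each cell was thinned to 1000 UMIs because depth differed, was 8.66% in PBS (6.87 to 10.7, n = 866 cells) and 13.6% in anti–PD-1 (11.7 to 15.6, n = 1260). Unthinned, the shares were 19.3% and 33.7%, at median depths of 2998 and 4217 UMIs. In thinned neutrophils the share was 0.276% and 0.587%, at unthinned median depths of 1587 and 2113 UMIs. Cells with at least 2 *Pdcd1* UMIs made up 8.17% of PBS and 22.0% of anti–PD-1 CD8 cells, and the most in 1 cell was 8 and 24.

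Within the PBS library, the level differed between cells with *Xist* and cells with a Y-linked UMI. These came from different animals, so sex cannot be told apart from the animal. They also differed in makeup, since 247 of 387 and 38 of 72 CD8 cells were of the effector set. In CD8 T cells *Pdcd1* stood at 120 CPM (103 to 138) in 387 cells with *Xist* and at 43.0 CPM (21.5 to 77.0) in 72 cells with a Y-linked UMI, whereas the 744 Y-linked cells of the anti–PD-1 library had 214 CPM (201 to 228). Anti–PD-1 CD8 cells thus lay above both kinds of PBS cell, by a log2 ratio of 2.19 among Y-linked cells only and of 0.67 when all anti–PD-1 cells were set against PBS cells with *Xist*. The size of the difference therefore rests on which PBS cells are used, and the 11 UMIs behind the PBS Y-linked value make it imprecise.

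**Figure D1:**
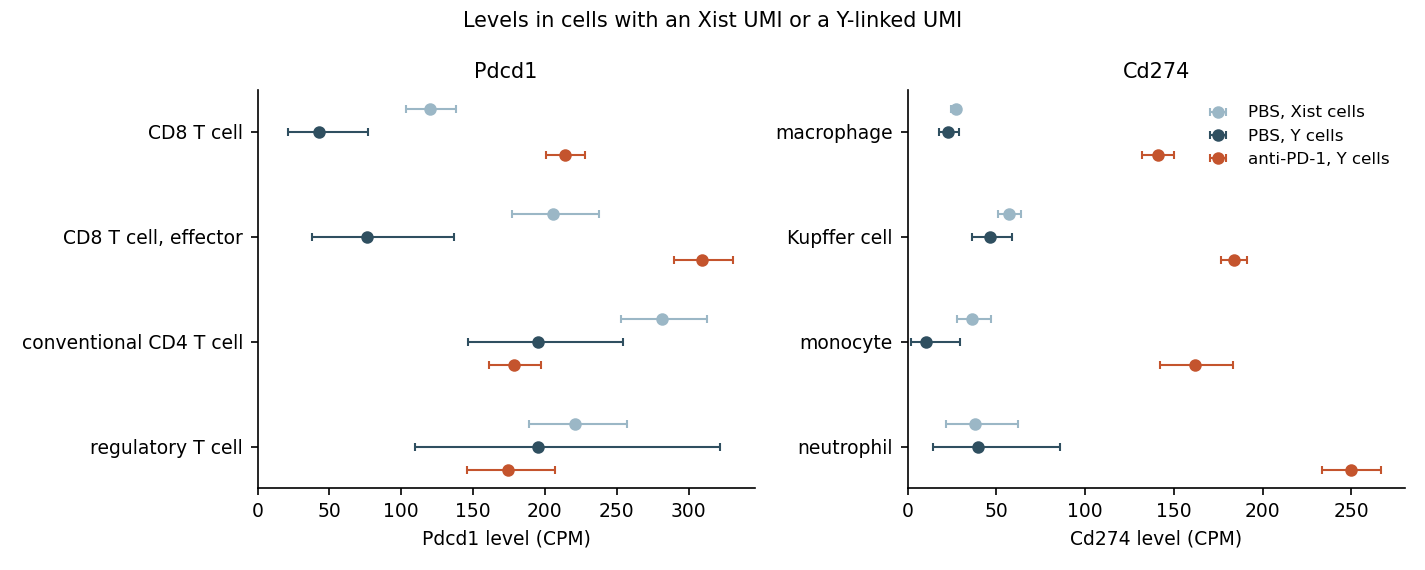
*Pdcd1* level in T cell subsets (left) and *Cd274* level in myeloid classes (right), both in CPM, for PBS cells with UMIs of Xist but no Y-linked gene (light blue), PBS cells with the reverse (dark blue) and anti–PD-1 cells of the latter, male kind (orange), where points are sums over cells and bars are exact 95% Poisson intervals. In CD8 T cells the PBS kinds lie apart at 120 and 43.0 CPM and both below 214 CPM, whereas for *Cd274* in macrophages they lie together at 27.0 and 23.0 CPM, far below 141 CPM.

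In conventional CD4 T cells (*Cd4* without *Foxp3*) *Pdcd1* was lower in the anti–PD-1 library, with 548 UMIs in the 668 PBS cells (223 CPM, 205 to 243) and 546 UMIs in the 769 anti–PD-1 cells (167 CPM, 153 to 181). This is a log2 ratio of −0.41 (−0.58 to −0.24). In regulatory T cells (*Foxp3*), the PBS level was 209 CPM (182 to 239) and the anti–PD-1 level 167 CPM (144 to 192), with −0.32 (−0.60 to −0.04) as the log2 ratio. The level intervals overlapped in regulatory and not in conventional CD4 cells. In regulatory T cells the interval of the ratio included 0 among Y-linked cells only (−0.16, −0.91 to 0.69) and when ratios were taken relative to the median gene (−0.21, −0.48 to 0.07). Among Y-linked cells only (77 in PBS and 444 in anti–PD-1), the ratio in conventional CD4 cells was −0.12. Its interval of −0.53 to 0.30 includes 0. With all anti–PD-1 cells set against PBS cells with *Xist*, which had 282 CPM, the ratio was −0.74 (−0.93 to −0.55). The γδ T cells, gated by *Trdc*, held 1 *Pdcd1* UMI in 57 PBS cells against 20 UMIs in 56 anti–PD-1 cells, where 12 cells carried them. Among Y-linked cells only, the interval of the ratio included 0 both in γδ (−1.31 to 4.91) and in naive-like CD8 cells (−1.24 to 2.59).

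In PBS, the order of *Pdcd1* levels was conventional CD4, regulatory, effector CD8, other T cells (65.8 CPM, 57.7 to 74.7), γδ and naive-like CD8 cells. Only other T cells differed from both neighbors beyond their intervals. In anti–PD-1, effector CD8 cells came first at 295 CPM (278 to 312), above conventional CD4 and regulatory cells, which overlapped. They were followed by γδ cells at 93.2 CPM (56.9 to 144), other T cells at 83.8 CPM and, apart from these, naive-like CD8 cells at 13.03 CPM. Over all T cells the log2 ratio was 0.30. It was 0.82 among Y-linked cells only, −0.08 against PBS cells with *Xist* only, and 0.04 (−0.06 to 0.14) after free RNA was subtracted. The last value used a free RNA share of 26.6% in pooled PBS T cells. Taken singly, PBS CD8, conventional CD4, regulatory, γδ and other T cells had shares of 7.80% to 14.0%. Of the red cell UMIs in PBS T cells, 1 cell held 91.2%. The pooled T cell value mixed subsets that differed in direction over all cells, and their part in these changes was not tested.

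**Figure D2:**
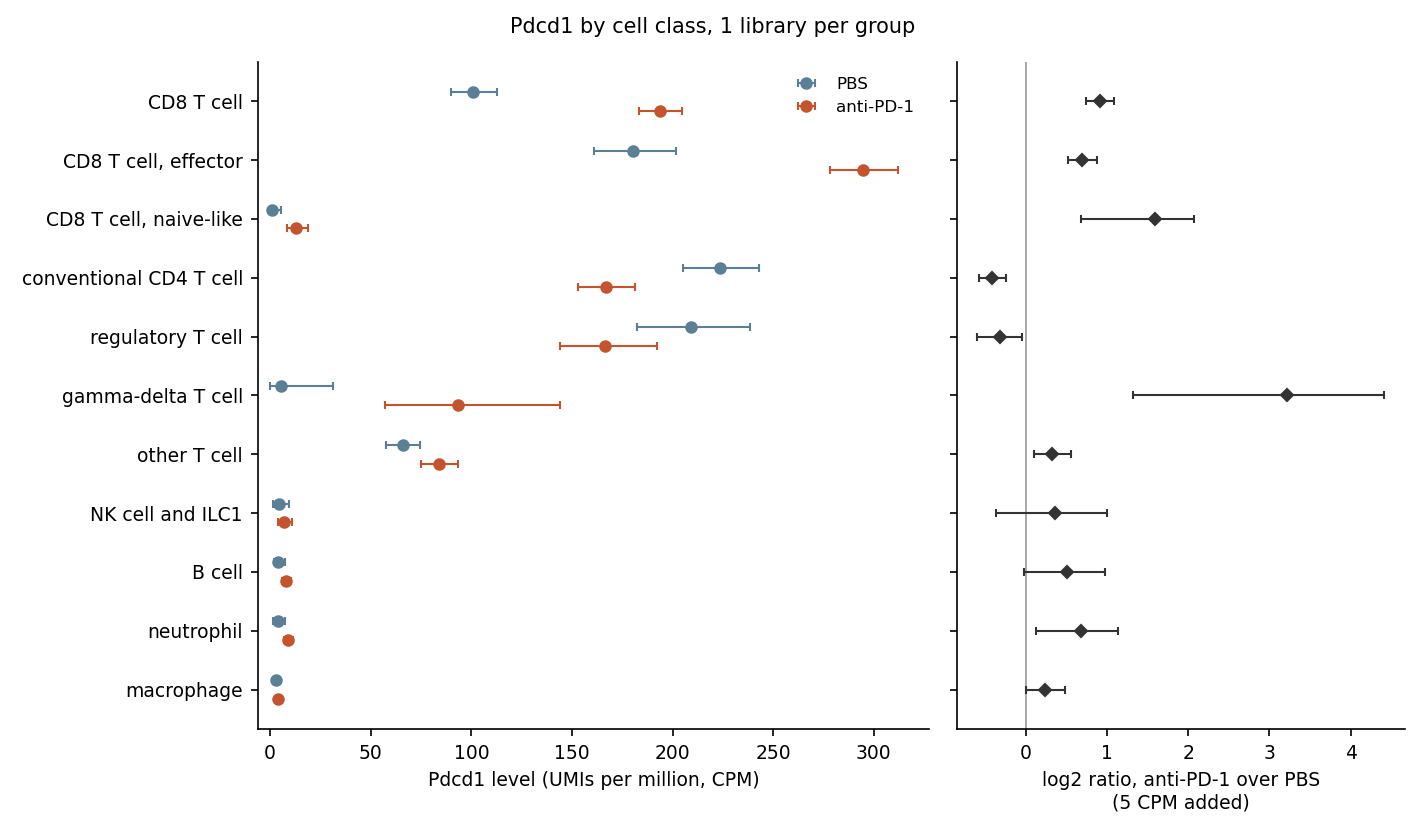
*Pdcd1* level in CPM by cell class (left), PBS in blue and anti–PD-1 in orange, with exact 95% Poisson intervals, and the log2 ratio of anti–PD-1 over PBS with its 95% interval (right), both for counting error only. CD8 T cells and their effector set lie right of 0 at 0.91 and 0.69, conventional CD4 and regulatory T cells lie left of it at −0.41 and −0.32, and neutrophils lie at 3.76 and 9.01 CPM.

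The genes known to act with PD-1 in T cells were read as 2 lists. In CD8 T cells, 1.68% of 11558 genes with at least 20 UMIs had a log2 ratio of at least 1, as did 1 of the 3 members (*Cd274*). Of 8 genes of PD-1 signaling and its targets 1 did so, and the list's median was 0.01 against −0.10 over all those genes. That gene was *Cd28*, the costimulatory receptor that PD-1 counteracts, at 110 and 247 CPM. The phosphatases *Ptpn6* (SHP-1) and *Ptpn11* (SHP-2) had log2 ratios of −0.14 and 0.19. In conventional CD4 cells, 0 of the 8 reached 1, against 2.17% of 10873 genes and 1 of the 3 members (*Cd274*), and the median was −0.03 against −0.14. *Cd28* had a log2 ratio of 0.60 there.

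Of 9 transcription factors known to act at the *Pdcd1* gene, 1 reached a log2 ratio of 1 in CD8 T cells, against 1.68% of 11558 genes. The list's median was 0.07 against −0.10 over all those genes. In conventional CD4 cells 1 of the 9 did so against 2.17% of 10873 genes, with medians of 0.05 and −0.14. *Nr4a1*, an immediate early gene of T cell receptor signaling, was at 63.9 CPM in PBS and 393 CPM in anti–PD-1 CD8 cells, and at 94.99 and 507 CPM in conventional CD4 cells. Its log2 ratios of 2.53 (2.33 to 2.73) and 2.36 (2.17 to 2.55) had overlapping intervals, and its part in the *Pdcd1* levels was not tested. *Tox*, a factor of exhausted T cells, was at 172 and 173 CPM in CD8 cells. *Batf* had a log2 ratio of 0.71 (0.50 to 0.92) in CD8 cells and of −0.25 (−0.42 to −0.08) in conventional CD4 cells, and *Tcf7*, a factor of naive and stem-like T cells, had −0.32 and −0.15.

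*Cd274* was the most widely detected of the 3 genes and differed most between the libraries, with 2113 UMIs in PBS and 9787 in anti–PD-1, or 26.7 and 126 CPM over all kept cells. It was higher in anti–PD-1 in neutrophils, monocytes, macrophages, Kupffer cells, cDC2, mature DCs, endothelial cells, tumor and biliary cells, NK, T, B and plasma cells. In each, the intervals of the level did not overlap over all cells, although they overlapped in B cells among Y-linked cells only. In cDC1, pDC and cancer-associated fibroblasts (CAFs) the intervals overlapped.

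The myeloid cells of the 2 libraries lay largely in different clusters, so that the values below set cells of different clusters against each other. The clusters were made from both libraries together without integration. Cell states therefore cannot be told apart here from differences in preparation or sex. Macrophage clusters 4 and 14 held 2129 and 839 PBS cells but 107 and 26 anti–PD-1 cells, and clusters 11 and 13 held 53 and 60 PBS cells but 1007 and 829 anti–PD-1 cells. The PBS and anti–PD-1 numbers were 1118 and 47 in neutrophil cluster 9 against 107 and 2302 in cluster 3. They were 900 and 235 in Kupffer cell cluster 10 against 21 and 810 in cluster 15, and 528 and 89 in monocyte cluster 19 against 6 and 325 in cluster 21.

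In macrophages (*C1qa*, *Adgre1*) *Cd274* had 656 UMIs in 3023 PBS cells, a level of 25.5 CPM (23.6 to 27.5), and 1318 UMIs in 1260 anti–PD-1 cells, a level of 134 CPM (127 to 142). Anti–PD-1 was higher by a log2 ratio of 2.19 (2.07 to 2.31). Free RNA was estimated at 4.65 and 18.3 CPM, and the log2 ratio was 2.22 after it was subtracted. Monocyte markers in these cells summed to 1236 and 1753 CPM, neutrophil markers to 369 and 611 CPM and Kupffer cell markers to 200 and 425 CPM. The cDC2 markers stood at 201 and 175 CPM, and the part of such RNA in macrophages was not tested. Among 13861 genes with at least 20 UMIs in this class, 2.31% had a ratio of 1 or more, and *Cd274* was the only one of the 3 members that did. Kupffer cells, the resident macrophages of the liver, were gated by at least 4 of 8 markers (*Clec4f*, *Vsig4* and others). In them the PBS level of *Cd274* was 50.001 CPM (45.5 to 54.8) and the anti–PD-1 level 179 CPM (173 to 186). The log2 ratio of 1.75 (1.62 to 1.88) was the only one past 1 among the 3 members, against 1.76% of 13254 genes. With cluster classes 2146 rather than 1260 anti–PD-1 cells were macrophages, so the split between macrophages and Kupffer cells rested on the gate. Free RNA was estimated at 1.51 and 32.2 CPM in Kupffer cells, and the log2 ratio was 1.85 after it was subtracted. The anti–PD-1 estimate is uncertain, since it depends on which transcripts are used. Relative to the library, neutrophil and immunoglobulin RNA stood at 5.55% and 5.58%, and hepatocyte and red cell RNA at 45.4% and 104%, in anti–PD-1 Kupffer cells. Monocyte markers in these cells summed to 463 and 1073 CPM and neutrophil markers to 300 and 624 CPM, and their part was not tested. In monocytes (*Ly6c2*, *Ccr2*) it was at 29.1 CPM (23.5 to 35.6) in PBS and at 158 CPM (142 to 175) in anti–PD-1, a log2 ratio of 2.26. It was the 1 of 2 members counted that passed 1 there, as did 3.73% of 10335 genes.

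Neutrophils (*S100a8*, *Csf3r*) had 96 *Cd274* UMIs in 1199 PBS cells against 1987 in 3013 anti–PD-1 cells. The level was 45.1 CPM (36.5 to 55.1) in PBS and 263 CPM (252 to 275) in anti–PD-1, the second highest of the anti–PD-1 classes. The log2 ratio was 2.42 (2.15 to 2.70), and 1 of the 3 members and 2.45% of 11577 genes had 1 or more. Free RNA was estimated at 13.3 and 38.2 CPM of *Cd274*, and the log2 ratio was 2.26 after it was subtracted. Macrophage markers in neutrophils summed to 1187 and 1658 CPM, Kupffer cell markers to 538 and 827 CPM and monocyte markers to 2607 and 1568 CPM. The part of such RNA was not tested. The median ratio over all genes was −0.33 in neutrophils and −0.21 in macrophages, so that *Cd274* stood higher still relative to it, by 2.74 and 2.39. Among anti–PD-1 neutrophils 73.6% had no *Cd274* UMI and 8.33% had 3 or more, against 94.0% and 0.667% in PBS.

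The difference was as large within Y-linked cells, with log2 ratios of 2.38 in macrophages, 2.52 in neutrophils, 1.88 in Kupffer cells and, on 3 PBS UMIs, 3.46 in monocytes. In macrophages PBS cells with *Xist* and with a Y-linked UMI had 27.0 and 23.0 CPM, and anti–PD-1 Y-linked cells 141 CPM. In neutrophils the values were 38.2, 39.5 and 250 CPM, with 16 and 6 UMIs behind the first 2. The thinned share of macrophages with a *Cd274* UMI was 2.90% in PBS (2.33 to 3.57) and 10.3% in anti–PD-1 (8.59 to 12.2), and unthinned it was 14.4% and 41.4%. Tumor and biliary cells, with the lowest PBS level of the classes that had at least 50 cells in both libraries, had thinned shares of 0.451% and 3.33%, at median depths of 2980 and 1921.5 UMIs against 7855 and 7133.5 in macrophages.

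Among DCs, mature DCs (*Ccr7*, *Fscn1*), the migratory state that presents antigen to T cells, had the highest *Cd274* level of all classes in both libraries. It was 167 CPM (127 to 215) from 60 UMIs in 72 PBS cells and 455 CPM (387 to 532) from 157 UMIs in 54 anti–PD-1 cells, of which 1 cell held 31 UMIs. The thinned shares of mature DCs with a *Cd274* UMI, 15.3% in PBS (7.88 to 25.7) and 24.5% in anti–PD-1 (13.8 to 38.3), had overlapping intervals. The log2 ratio was 1.42 (1.00 to 1.86), and 1 of 2 members counted and 4.33% of 4961 genes had 1 or more. In cDC2 (*Cd209a*, *Clec10a*) the PBS level was 36.9 CPM (29.0 to 46.3) and the anti–PD-1 level 159 CPM (137 to 184), a log2 ratio of 1.97. Of 2 members counted 1 passed 1, as did 2.78% of 9340 genes.

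In cDC1 (*Xcr1*, *Clec9a*), the DCs specialized in cross-presentation to CD8 T cells, *Cd274* was at 35.4 CPM (24.0 to 50.2) in PBS and 38.7 CPM (27.4 to 53.1) in anti–PD-1. The log2 ratio was 0.11, with an interval of −0.51 to 0.74, and 0 of 1 member counted and 3.94% of 7910 genes in this class had 1 or more. The cDC1 interval lay wholly below that of cDC2 (1.61 to 2.33) and rested on 31 and 38 UMIs. No difference was detectable in cDC1 at this depth. Among Y-linked cDC1 only (1 UMI in 10 PBS cells against 22 UMIs in 56 anti–PD-1 cells) the ratio was 1.26, with an interval of −0.81 to 2.81.

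Outside the immune compartment, tumor and biliary cells (*Epcam*, *Krt19*) had 15 *Cd274* UMIs in 963 PBS cells against 53 in 558 anti–PD-1 cells. The level was thus 2.78 CPM in PBS (1.55 to 4.58) and 23.5 CPM in anti–PD-1 (17.6 to 30.8). *Cd274*, the 1 member counted here, had a log2 ratio of 1.88 (1.43 to 2.29), and 2.82% of 12535 genes had 1 or more. RNA of some other cell types was higher too: the 9 neutrophil markers summed to 178 and 700 CPM in this class, and the 8 macrophage markers to 418 and 730 CPM, all of them detected. Markers of other types were lower, among them those of monocytes (356 and 323 CPM), plasma cells (366 and 218 CPM) and endothelial cells (106 and 42.7 CPM). The part of such RNA was not tested. Free RNA was estimated at 0.913 and 10.1 CPM of *Cd274*, and after it was subtracted the log2 ratio was 1.50. Of its clusters, number 16 held 717 PBS but 28 anti–PD-1 cells. The anti–PD-1 level of this class lay below those of neutrophils, monocytes, macrophages and Kupffer cells.

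Endothelial cells (*Pecam1*, *Stab2*) had 19 *Cd274* UMIs in 552 PBS cells against 63 in 108 anti–PD-1 cells. Its level was 6.83 CPM in PBS (4.11 to 10.7) and 121 CPM in anti–PD-1 (92.9 to 155). The log2 ratio of 3.41 (2.87 to 3.92), of the 1 member counted, was the largest of the classes with at least 50 cells, and 3.02% of 10555 genes had 1 or more. Neutrophil markers summed to 450 and 1357 CPM in these cells and macrophage markers to 1069 and 1472 CPM, with none at 0, and the part of such cells in the result was not tested. Free RNA was estimated at 5.94 and 22.3 CPM, so the PBS level was close to it, and the log2 ratio was 4.34 after subtraction. In CAFs *Cd274* was at 6.16 CPM (3.52 to 9.998) in PBS and 13.4 CPM (7.16 to 23.0) in anti–PD-1, and the log2 ratio of 0.73 became −0.08 after free RNA was subtracted.

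In T, B and NK cells the anti–PD-1 *Cd274* level lay below those of neutrophils, monocytes, macrophages and Kupffer cells. In T cells it was at 24.2 CPM in PBS (21.3 to 27.4) and 59.8 CPM in anti–PD-1 (55.9 to 63.8), with free RNA estimated at 7.10 and 12.5 CPM. It was in B cells at 33.9 and 65.8 CPM, and in NK cells at 27.4 and 84.6 CPM, with free RNA estimated at 3.13 and 17.3 CPM in B cells and at 4.26 and 17.5 CPM in NK cells. Neutrophil markers in NK cells summed to 187 and 878 CPM and Kupffer cell markers to 152 and 359 CPM. In T cells neutrophil markers summed to 260 and 900 CPM, Kupffer cell markers to 128 and 343 CPM and monocyte markers to 842 and 849 CPM. The part of such RNA in the NK and T cell values was not tested. Among Y-linked B cells only, the level was 55.2 CPM in PBS (32.2 to 88.4) and 65.0 CPM in anti–PD-1 (56.7 to 74.1), and the log2 ratio was 0.22, with an interval of −0.44 to 0.93 that includes 0. The log2 ratios of T, B and NK cells were 1.15, 0.86 and 1.47. Within T cells, CD8, conventional CD4 and regulatory cells had ratios of 1.21, 1.21 and 1.11 over all cells. In these values *Cd274*, unlike *Pdcd1*, did not differ in direction between subsets. Among Y-linked CD8 cells only, *Cd274* was at 27.4 CPM (11.0 to 56.4, 7 UMIs) in PBS and 45.5 CPM (39.5 to 52.2) in anti–PD-1, so that the intervals overlapped. They also overlapped among Y-linked regulatory cells, where PBS had 1 UMI. Plasma cells were at 6.50 CPM from 11 UMIs and 69.3 CPM from 88 UMIs, of which 1 cell held 17. Free RNA was estimated at 1.52 and 5.79 CPM in plasma cells. Their neutrophil markers summed to 165 and 404 CPM, macrophage markers to 407 and 593 CPM and monocyte markers to 3465 and 3353 CPM. The part of such RNA was not tested.

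**Figure D3:**
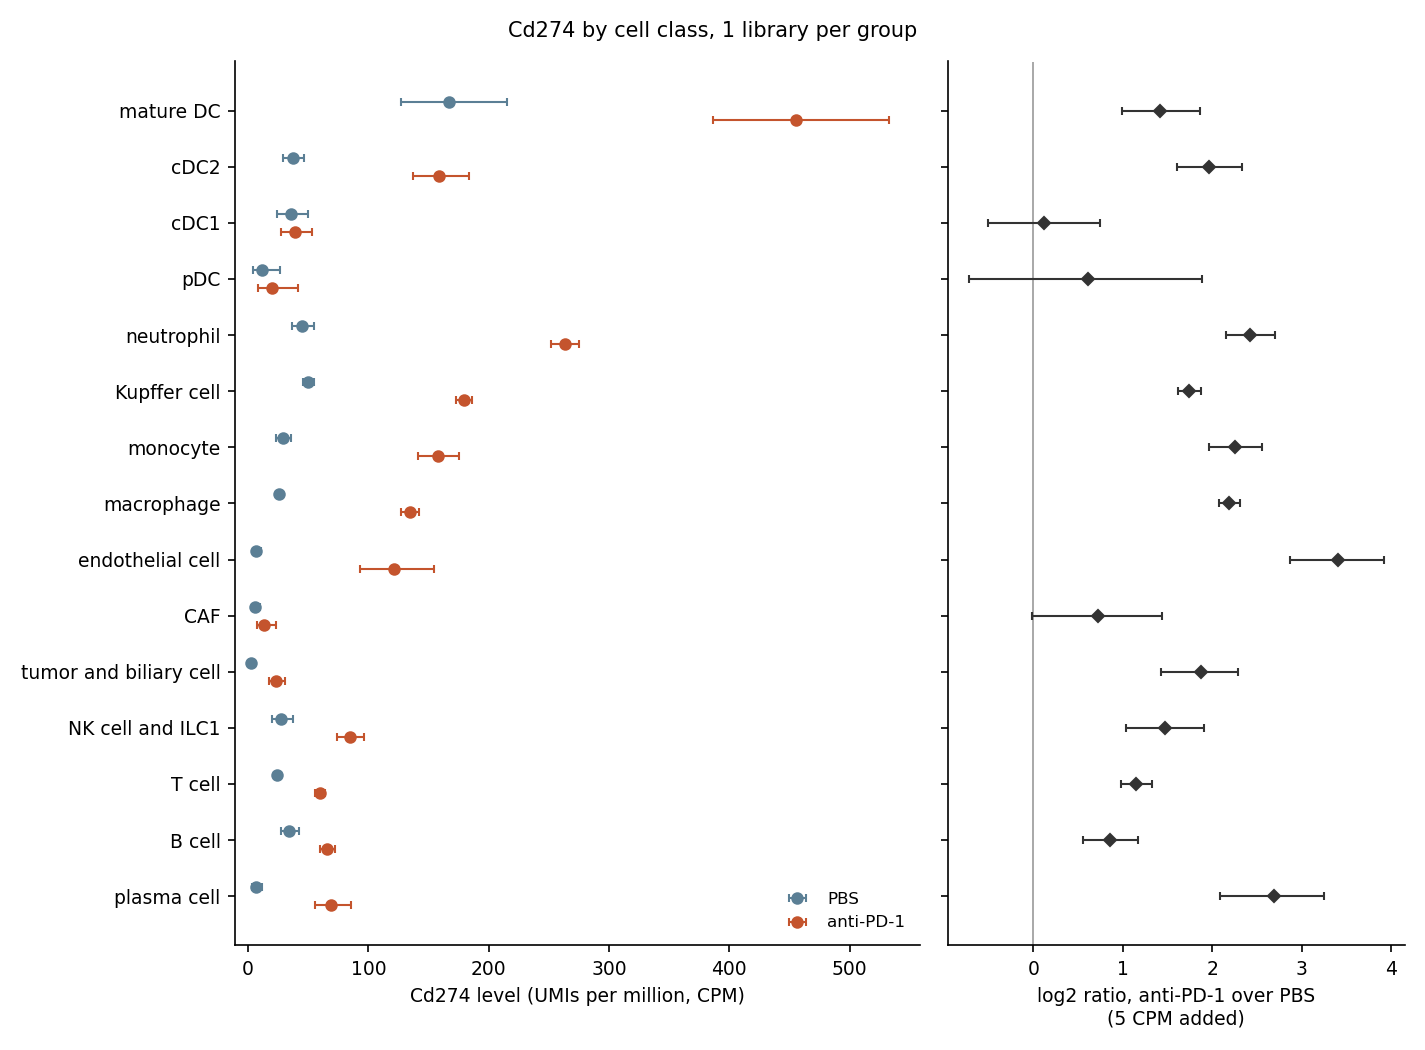
*Cd274* level in CPM by cell class (left), PBS in blue and anti–PD-1 in orange, with exact 95% Poisson intervals, and the log2 ratio of anti–PD-1 over PBS with its 95% interval (right), both for counting error only. Mature DCs lie highest in both libraries at 167 and 455 CPM, and the interval of the ratio crosses 0 in cDC1, pDC and CAFs.

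Genes known to act between interferon-γ and *Cd274* were read beside it. The transcription factor *Irf1* was at 79.1 CPM in PBS and 313 CPM in anti–PD-1 macrophages, at 34.4 and 251 CPM in tumor and biliary cells, and at 82.0 and 313 CPM in endothelial cells. Its log2 ratio was 1.92 in macrophages, 1.96 in Kupffer cells, 1.33 in neutrophils and 2.70 in tumor and biliary cells. In DCs it was 0.83 in cDC1, 0.91 in cDC2 and 0.52 in mature DCs. The feedback inhibitor *Socs1* had log2 ratios of 1.43 in macrophages, 1.09 in Kupffer cells, 1.54 in mature DCs and 0.43 in neutrophils. In cDC1 and cDC2 its ratios of 0.23 (−0.40 to 0.87) and 0.37 (−0.16 to 0.90) had intervals that include 0. The receptor genes *Ifngr1* and *Ifngr2* were lower in anti–PD-1 macrophages, at log2 ratios of −0.57 and −0.21. They were also lower in Kupffer cells, at −0.46 and −0.15, and in neutrophils, at −0.24 and −0.94. In tumor and biliary cells their ratios of 0.18 and −0.08 had intervals that include 0.

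*Ifng* itself was at 58.0 CPM in PBS and 296 CPM in anti–PD-1 CD8 T cells, a log2 ratio of 2.26 (2.05 to 2.47). Of 5 genes known to act on the stability of PD-L1 protein, not all in the same direction, none reached 1 in neutrophils, macrophages, Kupffer cells or tumor and biliary cells. The medians were −0.40, −0.21, −0.17 and −0.11 beside −0.24, −0.12, −0.10 and −0.04 over all genes counted. *Cmtm6*, which keeps PD-L1 at the cell surface, had log2 ratios of −0.43, −0.16, −0.17 and −0.11 in these classes. *Cd80*, a partner of PD-L1 on the same cell, was at 44.3 and 116 CPM in cDC2 and at 142 and 299 CPM in mature DCs, whereas *Rgmb*, a partner of PD-L2, had log2 ratios of 0.38 and 0.30 with intervals that include 0.

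*Pdcd1lg2* was the rarest of the 3 genes, with 799 UMIs in PBS and 1045 in anti–PD-1. T cells held 49.8% of them in PBS (46.3 to 53.3) and 40.5% in anti–PD-1 (37.5 to 43.5), at 13.1% and 19.4% of the RNA. Free RNA was estimated at 2.69 and 1.34 of the 38.3 and 28.1 CPM in T cells. In the classes for which PD-L2 is best known, mature DCs had the highest PBS level and macrophages were near background.

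In mature DCs *Pdcd1lg2* had 28 UMIs in 72 PBS cells against 18 in 54 anti–PD-1 cells, which is 77.9 CPM (51.8 to 113) against 52.2 CPM (30.9 to 82.5). The UMIs lay in 19 PBS cells but in 6 anti–PD-1 cells, of which 1 held 9 of the 18, so that the anti–PD-1 level rests largely on that cell. The intervals overlapped, and the log2 ratio of −0.54 had an interval of −1.38 to 0.29. In cDC2 it stood at 14.3 CPM in PBS (9.56 to 20.5) and 23.9 CPM in anti–PD-1 (15.9 to 34.6), and the interval of the ratio, −0.03 to 1.19, includes 0. In macrophages *Pdcd1lg2* was at 2.56 CPM in PBS (1.98 to 3.26) and 4.38 CPM in anti–PD-1 (3.17 to 5.90), where free RNA was estimated at 1.76 and 1.95 CPM. Tumor and biliary cells had 3 and 1 UMIs.

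In conventional CD4 T cells *Pdcd1lg2* had 151 UMIs in PBS and 104 in anti–PD-1, a level of 61.6 CPM (52.1 to 72.2) against 31.8 CPM (26.0 to 38.5). The anti–PD-1 level was lower, and the log2 ratio of −0.86 (−1.18 to −0.53) was −0.89 among Y-linked cells only. In regulatory T cells the levels of 53.2 CPM (40.2 to 69.1) and 50.9 CPM (38.6 to 65.8) overlapped. In CD8 T cells it was at 13.7 CPM in PBS (9.87 to 18.5) and 20.8 CPM in anti–PD-1 (17.5 to 24.6). The log2 ratio there, 0.46 (0.08 to 0.85), was 0.04 among Y-linked cells only. The thinned share of conventional CD4 cells with a UMI was 5.13% in PBS (3.58 to 7.09) and 3.65% in anti–PD-1 (2.44 to 5.23), with overlapping intervals, at median depths of 2857 and 3576 UMIs. In macrophages, the thinned share was 0.101% and 0.352%.

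Among lymphocytes, NK cells and ILC1 differed the other way, with 36 UMIs in 491 PBS cells (25.3 CPM, 17.7 to 35.0) and 161 UMIs in 695 anti–PD-1 cells (57.7 CPM, 49.1 to 67.3). This log2 ratio of 1.05 (0.60 to 1.51) passed 1, and 2.53% of 10152 genes in this class had 1 or more, among them 2 of the 3 members (*Cd274* and *Pdcd1lg2*). Among Y-linked cells only, the ratio was 0.48, with an interval of −0.41 to 1.47. The order in anti–PD-1 was NK cells, mature DCs, regulatory, γδ and conventional CD4 T cells, of which each neighboring pair had overlapping intervals. In PBS, mature DCs, conventional CD4, regulatory and other T cells led, and each neighboring pair overlapped.

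**Figure D4:**
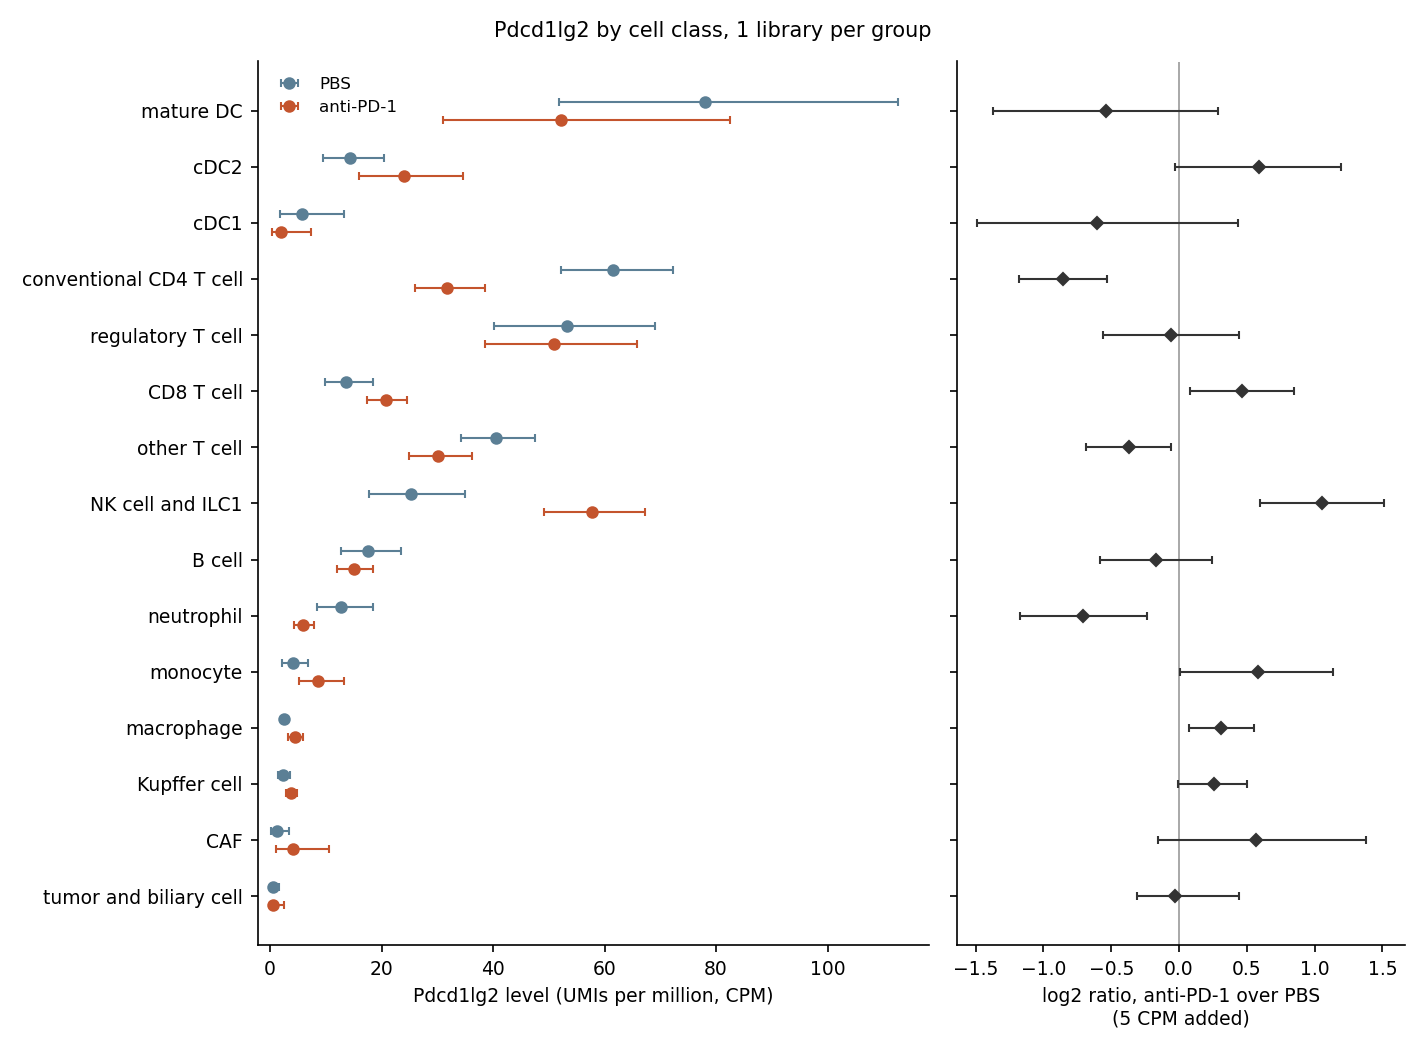
*Pdcd1lg2* level in CPM by cell class (left), PBS in blue and anti–PD-1 in orange, with exact 95% Poisson intervals, and the log2 ratio of anti–PD-1 over PBS with its 95% interval (right), both for counting error only. Conventional CD4 T cells lie left of 0 at −0.86 and NK cells right of it at 1.05, and the interval of mature DCs is wide, from −1.38 to 0.29.

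In conventional CD4 cells *Pdcd1lg2* was detected more often in cells with *Pdcd1* than in cells without. In PBS, *Pdcd1lg2* was detected in 60 of 217 cells with a *Pdcd1* UMI (27.6%, 21.8 to 34.1) and in 46 of 451 cells without (10.2%, 7.56 to 13.4). In anti–PD-1 the shares were 18.8% (13.8 to 24.7) and 7.91% (5.81 to 10.5). Cells with *Pdcd1* were deeper, at medians of 3914 against 2657 UMIs in PBS and 4369 against 3297.5 UMIs in anti–PD-1, and the part of depth in these shares was not tested. In effector CD8 cells the shares overlapped in both libraries (5.42% and 4.68% in PBS, 11.6% and 8.68% in anti–PD-1).

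Of 6 genes known to act in PD-L2 induction, 1 reached a log2 ratio of 1 in conventional CD4 cells, and 0 in NK cells, cDC2 and mature DCs. In these 4 classes 2.17%, 2.53%, 2.78% and 4.33% of all genes counted did. Only 5 of the 6 had enough UMIs to be counted in NK cells. The list's medians were 0.14, 0.13, −0.05 and 0.14, beside −0.14, −0.15, −0.19 and −0.09 over all genes. That gene was *Il4ra*, a chain of the interleukin-4 receptor, at 52.2 CPM in PBS and 121 CPM in anti–PD-1. *Il4ra* had log2 ratios of 0.97 in NK cells, 0.49 in cDC2 and 0.81 in mature DCs. *Stat6*, which relays the interleukin-4 signal, had ratios between −0.25 and −0.07 in these 4 classes.

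The libraries differed in where the ligand UMIs lay. In PBS, macrophages held 31.0% of the *Cd274* UMIs (29.1 to 33.1), Kupffer cells 21.6% and neutrophils 4.54%. In anti–PD-1, Kupffer cells held 31.5% (30.6 to 32.4), neutrophils 20.3% (19.5 to 21.1) and macrophages 13.5%. These shares reflect both the level per class and the number of cells, and are read against the share of all UMIs that each class held. Macrophages held 32.5% of all UMIs in PBS and 12.6% in anti–PD-1, close to their *Cd274* shares. Kupffer cells held 11.6% and 22.1%, and neutrophils 2.69% and 9.72%, in each below their *Cd274* share. The split between macrophages and Kupffer cells rested on the gate: with classes of cell clusters, macrophages held 31.2% and Kupffer cells 15.3% in anti–PD-1.

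**Figure D5:**
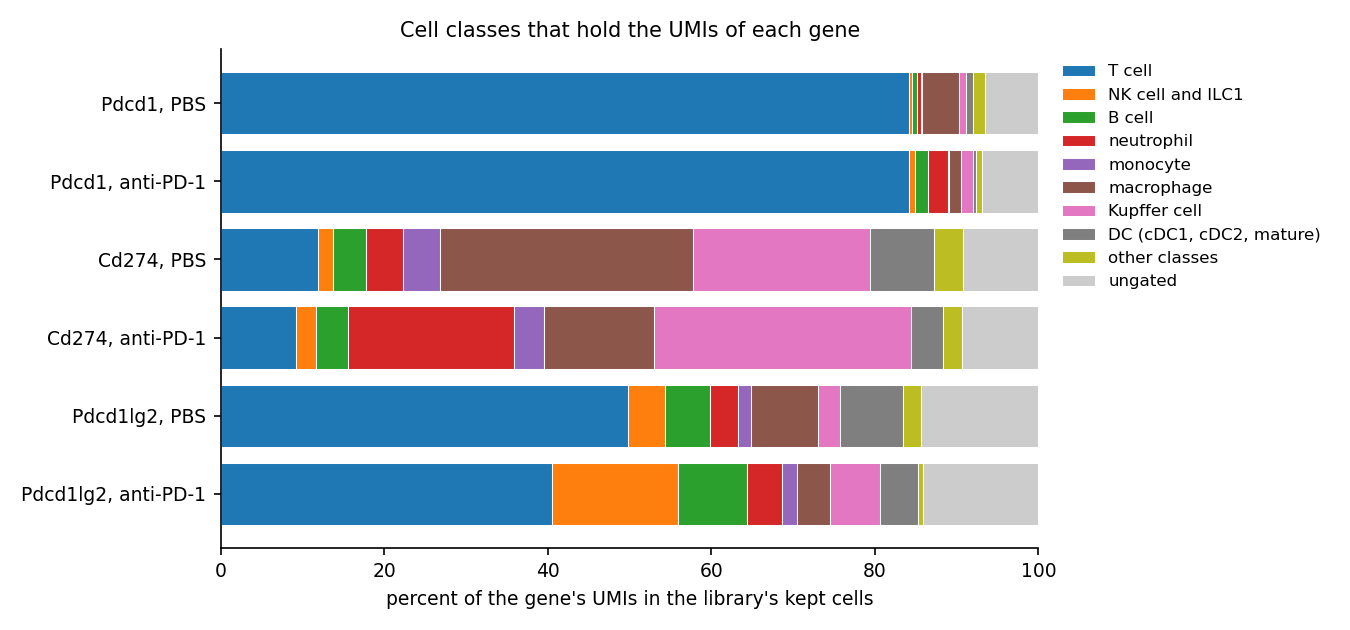
Percent of the UMIs of each gene that each cell class held, among kept cells, with 1 bar per gene and library and ungated cells in light gray. T cells fill 84.2% of the *Pdcd1* bars and 49.8% and 40.5% of the *Pdcd1lg2* bars, and the neutrophil part of *Cd274* is 4.54% in PBS and 20.3% in anti–PD-1.

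Over 20 nonoverlapping classes with at least 50 cells in both libraries (40 points), *Pdcd1* and *Pdcd1lg2* levels had a Pearson r of 0.73, *Cd274* and *Pdcd1lg2* of 0.38, and *Pdcd1* and *Cd274* of 0.12. Points of 1 library share its depth and free RNA, and these values are descriptions. Among 13365 genes compared, the 5 most like *Pdcd1* were *Slamf1*, *Crmp1*, *Tox2*, *A430093F15Rik* and *Rgs16* (r between 0.87 and 0.90). The 5 most like *Cd274* were *Herc6*, *Gbp5*, *Gbp2*, *Gadd45b* and *Ccrl2* (0.79 to 0.82). The 5 most like *Pdcd1lg2* were *Il2ra*, *Traf1*, *Tnfrsf18*, *Mir155hg* and *Ncoa2* (0.81 to 0.88).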

How the data were processed

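Single-cell libraries of mouse livers with cholangiocarcinoma, 1 library per group, were made by the authors with the Singleron GEXSCOPE kit. The authors deposited unnormalized UMI counts for each gene and barcode, with mm10 and Seurat 4.3 named in the submitters' processing notes. The annotation and the handling of strand were not given in the sources used here. An antisense gene lies within *Cd274* (AC119228.1) and one overlaps the end of *Pdcd1lg2* (A930007I19Rik, 1447 and 834 UMIs in kept cells), and how reads in these overlaps were assigned is unknown. The second is counted separately in the files, with 47 and 56 UMIs in T cells.

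The members, marker lists and gene lists were chosen with earlier results of these data known. Cells with 500 to 5000 genes and at most 10% mitochondrial UMIs were kept. A cell took a class with at least 3 distinct markers, a share of the list at least 0.2 above the median cell and 0.1 above the next lineage, Kupffer cells needed 4 of their markers, and T cell subsets were read from *Cd8a*, *Cd8b1*, *Cd4*, *Foxp3* and *Trdc*. Scrublet, run for doublets, marked 0 cells at its automatic threshold, so it did not work and no cell was removed. UMIs were summed per class and library (numpy 2.4.6, scipy 1.17.1, pandas 2.3.3), with exact 95% Poisson intervals for sums, exact Clopper-Pearson intervals for shares, and intervals of ratios combined from the former. Intervals cover counting error only, and p-values were not computed. Leiden clusters (leidenalg 0.10.2) of both libraries together, made without integration of the libraries, gave alternative classes. Free RNA was estimated in each class as the median of the levels of neutrophil, immunoglobulin, hepatocyte and red cell transcripts relative to the library, leaving out those of the class or its lineage, and was subtracted from both the UMIs of the gene and the total of the class. Genes with at least 20 UMIs in a class counted in its background. Named genes were the 3 members, fixed lists and, per member, the 5 genes with the highest Pearson r of log2(CPM + 5) with at least 200 UMIs and no use as a marker. One gene of the interferon-γ list, the counts over that list and one promoter motif are not reported here.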

Additional observations from a re-analysis of the deposited data

Results flagged for a closer look

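The PD-1 gene *Pdcd1* differed in opposite directions between lymphocyte classes, which drew attention to it: the log2 ratio was 0.91 in CD8 T cells and −0.41 and −0.32 in conventional CD4 and regulatory T cells. The intervals of the latter 2 included 0 among Y-linked cells only (−0.53 to 0.30 and −0.91 to 0.69), and that of regulatory T cells also with median-ratio scaling (−0.48 to 0.07). *Pdcd1lg2* did so too, at 0.46 in CD8 T cells and 1.05 in NK cells and ILC1 against −0.86 in conventional CD4 T cells, although the CD8 and NK intervals included 0 among Y-linked cells only (−0.97 to 1.12 and −0.41 to 1.47). These differences between classes were not tested, since each group has 1 library.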

How the results depend on the processing

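No paired analysis was possible because each group has 1 library, for which reason leaving out a replicate was not possible either. The log2 ratios of *Pdcd1* in CD8 T cells, *Cd274* in macrophages, neutrophils and tumor and biliary cells, and *Pdcd1lg2* in macrophages kept their direction under every alternative run, whereas that of *Pdcd1lg2* in mature DCs, whose interval includes 0, changed it once. Those that left the counting interval of the reported value were as follows. *Pdcd1* in CD8 T cells was 2.19 in Y-linked cells, 0.67 with PBS cells with *Xist* and 0.69 in cells without immunoglobulin UMIs, the last 2 chosen after seeing the data. *Cd274* in macrophages was 2.35 with 1 CPM added, 2.59 with cluster classes, 2.38 in Y-linked cells and 2.39 with median-ratio scaling. *Cd274* was 2.74 in neutrophils with median-ratio scaling and 2.70 in tumor and biliary cells with 1 CPM added. *Pdcd1lg2* was 1.66 in mature DCs in Y-linked cells, of which PBS had 9, and 0.59 in macrophages with 1 CPM added. Without thinning, shares were 19.3% and 33.7% for *Pdcd1* in CD8 T cells, 14.4% and 41.4% for *Cd274* in macrophages, and 15.9% and 10.9% for *Pdcd1lg2* in conventional CD4 T cells. With cluster classes, anti–PD-1 macrophages and Kupffer cells held 31.2% and 15.3% of *Cd274* UMIs, and neutrophils 7.29% in PBS and 22.3% in anti–PD-1. Among 258 alternatives of single classes, 222 stayed within the interval, 34 moved beyond it and 2, among results whose own interval excluded 0, changed sign: *Pdcd1* in T cells at −0.08 and *Pdcd1lg2* in neutrophils at 0.55, both with PBS cells with *Xist*. The cause of these changes was not tested. The doublet alternative left out the 5% of cells with the highest scores, since the caller marked 0 cells. Cluster classes gave no value for cDC1 and mature DCs.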
